A study of Mus musculus with 8 samples.

Results

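The genes described here encode the proteins of the extracellular matrix, the enzymes that cut them and the integrins that bind them, in tibialis anterior, a fast muscle of the lower leg. They were chosen by name: every row of either deposited table whose symbol begins like a collagen chain, laminin chain, fibrillin, fibulin, emilin, lysyl oxidase, matrix metalloproteinase (Mmp), Adam, Adamts, tissue inhibitor of metalloproteinases (Timp) or numbered integrin chain, with 7 names left out (Col1a1, Col1a2, Col6a3, Col4a1, Col4a2, Adamts8 and Itgam). This gave 56 of the 6028 genes listed in either table. Of these, 2 carry an integrin name but encode another kind of protein, so 54 genes were placed in a family. Healthy Balb/c mice were compared with Balb/c mice made cachectic (wasted) by metastases of 4T1, a mouse breast cancer line, and healthy CD2F1 mice with CD2F1 mice made cachectic by metastases of C26m2, a mouse colon cancer line. All mice were 12 to 14 weeks old and each of the 4 groups had 2 libraries. The tumour-bearing mice had received luciferase-labelled cancer cells, had the tumour cut out 2 to 3 weeks later and were killed 5 weeks after injection. No injection or surgery is recorded for the healthy mice, so the effects of these steps and of cancer cannot be told apart.

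Each table gives 1 FPKM value per group (fragments per kilobase of transcript a level scaled to transcript length and to the fragments mapped) and lists only genes that passed the authors' Cuffdiff test at a q-value of 0.05 or less. No value below therefore carries a spread between libraries, the sequencing depth is unknown, and nothing in the labels ties a library to a single animal, so the authors' p-values cannot be read as the spread between animals. A gene is called higher or lower where its table lists it, and a gene that is not listed may have been untested or may have missed the threshold. Folds are ratios of the 2 group FPKM values. In whole muscle, fewer cells of a type and less RNA per cell cannot be told apart. Among 11 skeletal muscle markers, the fast myosin light chain gene Myl1 was listed in both tables, as lower with tumour in each. Its level was 12839 FPKM in healthy Balb/c and 2499 FPKM in 4T1-bearing muscle. For CD2F1 mice the Myl1 values were 10614 FPKM (healthy) and 4165 FPKM (C26m2-bearing). Des and Mb were listed in the C26m2 table alone, both as higher with tumour. Healthy CD2F1 levels were 753 FPKM for Des and 2647 FPKM for Mb, against 1289.5 and 4184 FPKM with C26m2. The other 8 markers were in neither table. Lower markers thus made up 9.09% of the 11 in each model, against 15.4% (4T1) and 15.1% (C26m2) of tested genes. Higher markers made up 0% and 18.2%, against 17.4% and 21.7%.

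Muscle fibres sit in a basement membrane of laminins and network collagens, which is held by a looser interstitial matrix of fibrillar collagens and collagen VI made mainly by fibroblasts. Fibrillar procollagens are trimmed at both ends by proteases before they assemble, lysyl oxidases crosslink the fibres, and fibrillins and fibulins build elastic microfibrils. Matrix metalloproteinases and Adamts proteases cut matrix proteins and Timp proteins block them, while Adam proteases mostly shed proteins from cell surfaces. Integrins are paired receptors, each of an alpha and a beta chain, that tie cells to the matrix or, on leukocytes, to other cells.

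Most listed structural genes were lower in tumour-bearing muscle, while the listed proteases divided between higher and lower genes. In 4T1-bearing muscle 41 of the 54 family members were listed, 8 higher and 33 lower. Of all genes tested, 32.8% were called in this comparison, 17.4% higher and 15.4% lower. In C26m2-bearing muscle 37 were listed, 8 higher and 29 lower, where 36.8% of all tested genes were called, 21.7% higher and 15.1% lower. The mouse reference annotation holds 164 genes of these families outside the names left out, of which 110 were in neither table. As shares of those 164 genes, 4.88% were higher and 20.1% lower in the 4T1 model, and 4.88% were higher and 17.7% lower in the C26m2 model. How many of the 164 were tested is not known, so these shares are lowest values for tested members. The share lower was above that of all tested genes in both models, and for the share higher no order can be read from a lowest value.

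Stricter rules left the order of these counts as it was. At q of 0.01 or less, the 4T1 table held 33 members, 5 higher and 28 lower, against 22.3% of all tested genes, 11.9% higher and 10.4% lower. The C26m2 table then held 27, 6 higher and 21 lower, against 26.2%, 15.9% and 10.3%. With an absolute log2 ratio of 1 or more, the 4T1 members stayed at 41, 8 higher and 33 lower, against 27.9%, 14.6% and 13.4% of tested genes. The C26m2 members were then 33, 6 higher and 27 lower, against 23.8%, 13% and 10.8%. With a group value of at least 1 FPKM there were 35 members in the 4T1 model, 6 higher and 29 lower, against 30.6%, 16.6% and 14%. In the C26m2 model there were 29, 6 higher and 23 lower, against 34.6%, 21.2% and 13.5%. Lower members outnumbered higher ones under each rule, while among all tested genes higher calls were the more frequent.

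Classes follow gene names. Structural genes thus include the crosslinking enzymes Lox and Loxl1, and proteases include Adam23, which has no active protease site. By class, structural genes had 1 higher and 21 lower members in the 4T1 model and 2 higher and 18 lower members in the C26m2 model. Their median log2 ratio of tumour-bearing over healthy FPKM was -2.42 and -1.94, where the median over all listed genes was 0.86 and 0.72. Proteases had 5 higher and 7 lower members in the 4T1 model and 5 higher and 4 lower in the C26m2 model, with median log2 ratios of -1.92 and 0.80. The 4T1 median was -0.41 over genes of at least 1 FPKM and -0.56 with a pseudocount of 1 FPKM. Of the 75 proteases in the reference, 6.67% were higher and 9.33% lower in the 4T1 model and 6.67% higher and 5.33% lower in the C26m2 model, as lowest values, while structural genes had 32.8% and 28.1% of 64 lower. Integrin chains had 2 higher and 4 lower members in the 4T1 model and 1 higher and 6 lower in the C26m2 model. Their median log2 ratios were -2.11 and -2.88. Of the 21 integrin chains in the reference, 9.52% were higher and 19.0% lower in the 4T1 model and 4.76% higher and 28.6% lower in the C26m2 model, as lowest values. Of all tested genes 17.4% were higher and 15.4% lower in the 4T1 model and 21.7% higher and 15.1% lower in the C26m2 model. Medians are over listed genes, from which small changes are missing, and they were not tested.

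**Figure D1:**
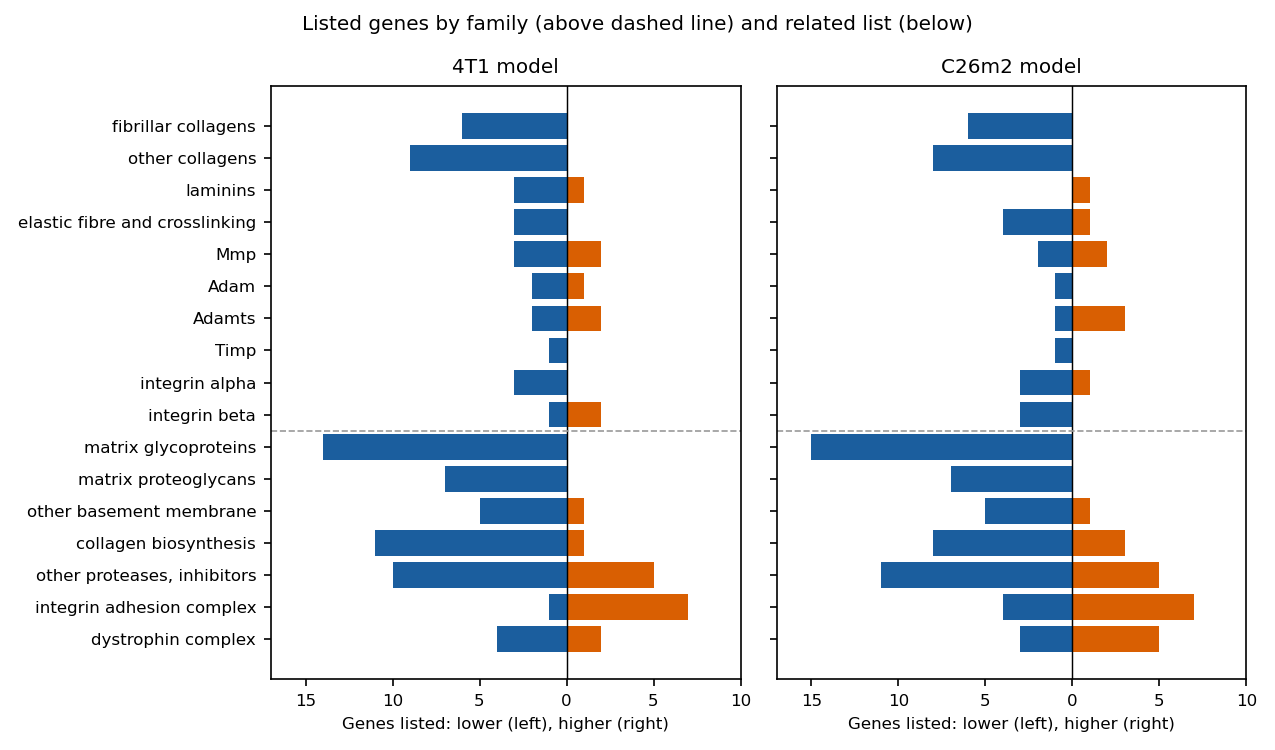
Number of listed genes per family (above the dashed line) and per related matrix or adhesion list (below it), with lower genes to the left of 0 and higher genes to the right, for the 4T1 model (left panel) and the C26m2 model (right panel). Of the collagens chosen, all 15 listed in the 4T1 table and all 14 in the C26m2 table lie on the lower side, while Mmp and Adamts genes lie on both sides.

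Fibrillar collagens, which form the load-bearing fibres, were lower in every listed case in both models, 6 genes in each table, and 5 of these genes were in both. Col3a1, the chain of type III collagen, stood at 65.8 FPKM in healthy Balb/c and 1.86 FPKM in 4T1-bearing muscle, and at 20.4 FPKM in healthy CD2F1 and 2.38 FPKM in C26m2-bearing muscle. Its fall was 35.5-fold in the 4T1 model and 8.58-fold in the C26m2 model. It was the most abundant listed collagen of this set in both healthy groups. Col5a1, a chain of the type V collagen that starts fibres, went from 7.11 to 0.655 FPKM in the 4T1 model and from 4.68 to 0.566 FPKM in the C26m2 model. Its partner chain Col5a2 fell less, from 11.4 to 1.76 FPKM and from 4.17 to 2.15 FPKM. The third type V chain, Col5a3, was listed in the 4T1 table alone, falling from 9.12 to 1.77 FPKM. Type XI collagen shares this fibre-starting role, and its chain Col11a2 fell from 3.98 to 0.582 FPKM in the 4T1 model. In the C26m2 model Col11a2 fell from 4.21 to 0.292 FPKM, a 14.4-fold change and the largest fall there of a fibrillar collagen in the chosen set, from which Col1a1 and Col1a2 are left out. Col27a1 fell 2.69-fold and 3.09-fold, from less than 1 FPKM in healthy muscle of either strain. Col24a1 was listed in the C26m2 table alone, from 3.72 to 0.570 FPKM.

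Collagen VI forms beaded filaments next to the basement membrane of muscle fibres, and mutations in its chains cause muscular dystrophy in people. Col6a2 fell from 20.6 to 0.737 FPKM in the 4T1 model, a 27.9-fold change, and from 7.99 to 0.797 FPKM in the C26m2 model, a 10.02-fold change. Col6a1 fell from 23.0 to 1.26 FPKM and from 12.2 to 1.48 FPKM. Both chains were thus near 1 FPKM in tumour-bearing muscle of either model. Col14a1, a fibre-associated collagen that also served as a fibroblast marker, fell from 2.36 to 0.114 FPKM and from 2.70 to 0.311 FPKM. Col12a1, its relative in tendon and muscle connective tissue, fell 3.25-fold and 2.18-fold. Col22a1, a collagen of the junction between muscle and tendon, fell from 4.75 to 0.520 FPKM in the 4T1 model. In the C26m2 model Col22a1 fell from 2.33 to 0.876 FPKM. Col15a1, a basement membrane collagen, fell from 25.9 to 4.70 FPKM and from 8.44 to 3.83 FPKM. Among the collagens chosen it thus had the highest listed level in tumour-bearing muscle of both models. Its relative Col18a1, the source of endostatin, was listed in the 4T1 table alone and fell from 2.17 to 0.853 FPKM. Col16a1 was also listed there alone, with a 5.47-fold fall, and Col9a1, a cartilage collagen, in the C26m2 table alone, from 0.503 to 0.0408 FPKM. Col8a1, a short-chain collagen, fell 5.23-fold and 3.31-fold. Among the names left out, Col4a1 and Col4a2, the network collagen of all basement membranes, were listed in the C26m2 table alone and went the other way, from 9.03 to 18.8 FPKM and from 8.35 to 20.5 FPKM.

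Laminins, the core of the basement membrane, shared no listed gene between the tables. In the 4T1 model Lama2, the alpha chain of muscle laminin whose loss causes congenital muscular dystrophy, fell from 12.3 to 3.85 FPKM. Lamb1 fell from 6.47 to 2.28 FPKM and Lamb2, the beta chain enriched at the neuromuscular junction, from 51.7 to 24.9 FPKM. Among structural members of the 4T1 table, Lamb2 had the second highest level in healthy muscle after Col3a1 and the highest in tumour-bearing muscle. The chains that rose belong to the laminin of epithelia and were low throughout: Lamb3 rose from 0.274 to 0.807 FPKM in the 4T1 model, and Lama3 from 0.210 to 0.475 FPKM in the C26m2 model. Whether the models differed in any laminin was not tested, since no chain has a value in both tables.

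Among elastic fibre genes, Fbn1, which encodes the main microfibril protein, fell from 6.24 to 0.737 FPKM in the 4T1 model and from 3.10 to 0.997 FPKM in the C26m2 model. Fbln7, an adhesive fibulin, fell 4.33-fold and 7.07-fold. Fbln1 and Fbln2 were listed in the C26m2 table alone. Fbln1 fell from 5.49 to 1.23 FPKM and Fbln2 from 22.3 to 12.2 FPKM. The crosslinking enzymes were each listed once and in opposite directions. Lox, the founding lysyl oxidase, rose from 3.93 to 7.10 FPKM in the C26m2 model, and Loxl1, which acts on elastin, fell from 6.05 to 1.18 FPKM in the 4T1 model. No emilin was listed in either table.

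**Figure D2:**
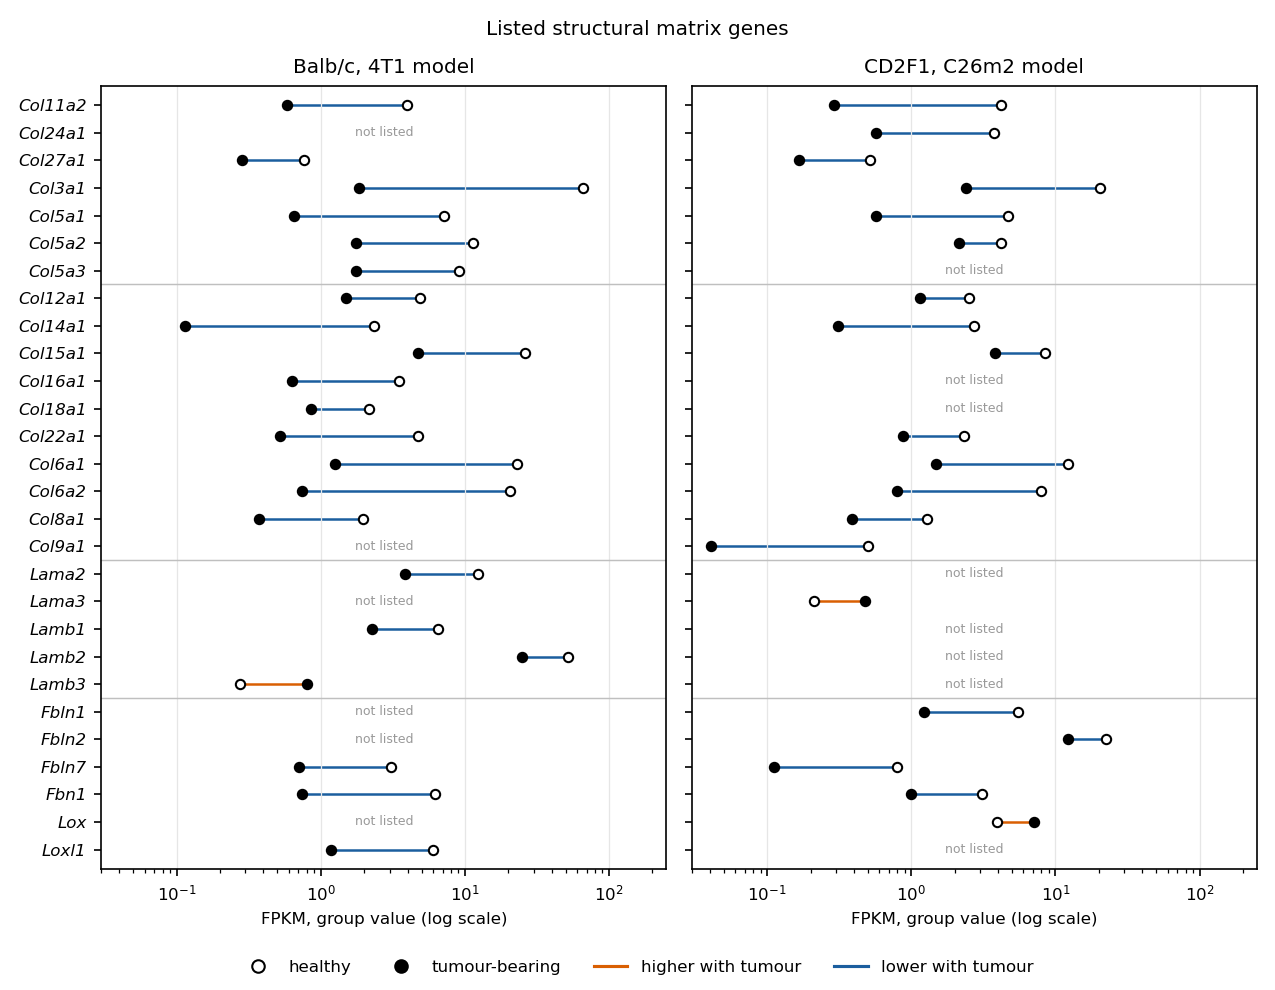
FPKM on a log axis for each listed structural gene in healthy (open circles) and tumour-bearing (filled circles) muscle, in the 4T1 model (left panel) and the C26m2 model (right panel), with blue lines for genes lower and orange lines for genes higher with tumour. Collagens, laminins and elastic fibre genes are separated by grey lines. Every line is blue except those of Lamb3 on the left and of Lama3 and Lox on the right.

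In these whole-tissue libraries fibroblast and tendon markers were lower along with the structural genes. The sets overlap, so the parallel is partly built in. Col14a1 is both a structural member and a fibroblast marker. The fibroblast markers Dcn and Lum and the tendon markers Fmod and Thbs4 are themselves matrix genes, counted again in the related lists below. Of 14 fibroblast markers, 9 were listed in the 4T1 table, all lower, and their summed level went from 444 to 153 FPKM. Of the same markers 12 were listed in the C26m2 table, 11 lower and 1, Pdgfrb, higher, with a sum of 567 in healthy and 212 FPKM in tumour-bearing muscle. The platelet-derived growth factor receptor gene Pdgfra, a defining fibroblast marker, fell 2.17-fold and 2.13-fold. All 5 listed tendon markers of 9 were lower in each table, summed from 145 to 5.34 FPKM and from 151 to 10.2 FPKM. The lower shares were 64.3% and 78.6% of the fibroblast markers and 55.6% of the tendon markers in each model. Of all tested genes 15.4% and 15.1% were lower. The part of fibroblast or tendon content in the falls of the collagens was not tested.

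The 14 structural genes listed in both tables summed to 182 FPKM in healthy Balb/c and 75.3 FPKM in healthy CD2F1 muscle, and to 15.8 and 15.5 FPKM in 4T1-bearing and C26m2-bearing muscle. The healthy value was higher in Balb/c for 12 of these 14 genes, with a median ratio of 1.98 between the strains, where the median ratio over the 3138 genes listed in both tables was 1.06. Between the tumour-bearing groups 6 of the 14 were higher in the 4T1 model, with a median ratio of 0.944. The groups thus differed in listed level when healthy and lay close together with tumour. The tables were normalized separately, no strain comparison was listed and no test was made of these ratios.

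**Figure D3:**
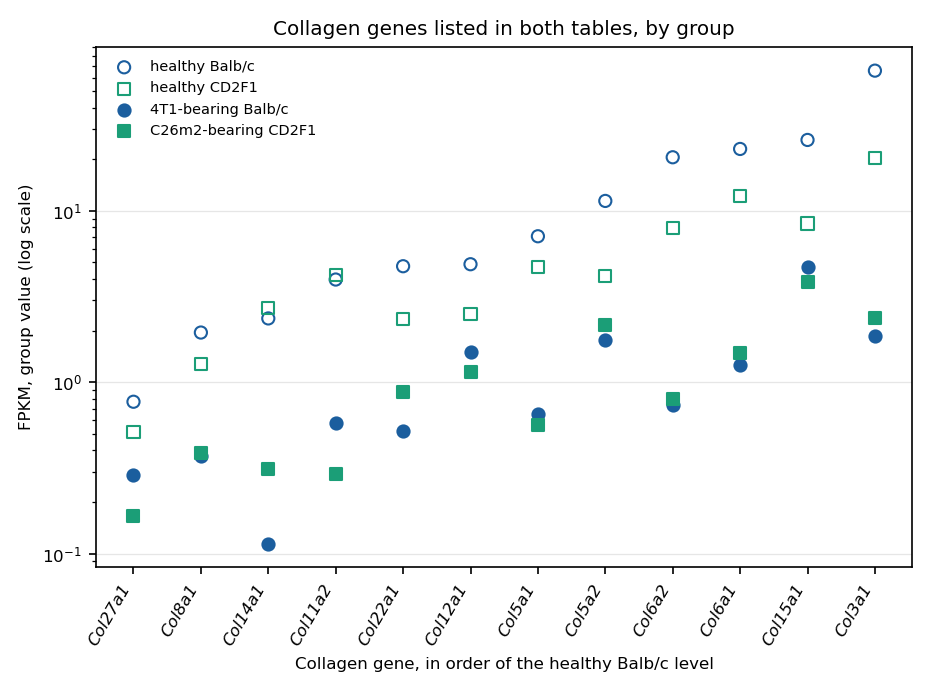
FPKM on a log axis for the 12 collagen genes listed in both tables, ordered by their level in healthy Balb/c muscle, with open symbols for healthy and filled symbols for tumour-bearing muscle (circles, Balb/c and 4T1; squares, CD2F1 and C26m2). Open circles lie above open squares for 10 of the 12 genes, and filled circles lie above filled squares for 5.

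The largest rise among the Adamts genes was that of Adamts2, the protease that removes the amino-terminal propeptide of fibrillar procollagens. Adamts2 stood at 5.55 FPKM in healthy Balb/c and 109 FPKM in 4T1-bearing muscle, and at 3.23 FPKM in healthy CD2F1 and 58.4 FPKM in C26m2-bearing muscle. It rose 19.6-fold and 18.1-fold, with q-values of 0.000382 and 0.000319 in the authors' deposited tables, which go with the smallest p-value they hold. The enzyme gene was thus the most abundant listed member of the families in tumour-bearing muscle of both models, where its substrate Col3a1 was at 1.86 and 2.38 FPKM. Members that a table does not list have no level there. Enzymes of the other propeptide moved the other way. Bmp1, which removes the carboxy-terminal propeptide, fell from 9.12 to 2.67 FPKM and from 9.62 to 3.80 FPKM, and its enhancer Pcolce fell 6.23-fold and 4.38-fold.

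The promoters of Adamts2, of Col3a1 and of Itga4 are shown as the regions upstream of the largest change in a protease listed in both tables with near equal folds, of the largest fall of a chosen collagen in the 4T1 model and of the largest fall of an integrin in the C26m2 model. Each covers 250 bases before to 50 after the gene's start in RefSeq (build GRCm38.p6, which is not the build NCBIM37 of the study), and capitals mark matches on either strand to 3 searched motifs, which did not overlap in these windows. The TATA box was searched as TATAAA. The GC box, which the factor Sp1 binds, was searched as the letters GGGCGG. The CAAT box was searched as the letters CCAAT.
Adamts2, chr11:50601835-50602134, plus strand: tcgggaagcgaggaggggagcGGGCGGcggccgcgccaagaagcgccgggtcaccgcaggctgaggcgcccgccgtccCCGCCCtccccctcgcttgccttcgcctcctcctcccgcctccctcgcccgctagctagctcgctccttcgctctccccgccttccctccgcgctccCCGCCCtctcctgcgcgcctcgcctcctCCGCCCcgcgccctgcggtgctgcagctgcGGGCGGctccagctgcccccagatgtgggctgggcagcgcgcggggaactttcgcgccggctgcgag
Col3a1, chr1:45311288-45311587, plus strand: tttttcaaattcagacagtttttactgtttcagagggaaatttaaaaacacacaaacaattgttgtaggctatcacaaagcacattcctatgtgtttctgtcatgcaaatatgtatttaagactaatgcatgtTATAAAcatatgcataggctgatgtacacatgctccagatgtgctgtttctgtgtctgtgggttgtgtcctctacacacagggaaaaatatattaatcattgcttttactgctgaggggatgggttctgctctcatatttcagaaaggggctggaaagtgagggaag
Itga4, chr2:79255176-79255475, plus strand: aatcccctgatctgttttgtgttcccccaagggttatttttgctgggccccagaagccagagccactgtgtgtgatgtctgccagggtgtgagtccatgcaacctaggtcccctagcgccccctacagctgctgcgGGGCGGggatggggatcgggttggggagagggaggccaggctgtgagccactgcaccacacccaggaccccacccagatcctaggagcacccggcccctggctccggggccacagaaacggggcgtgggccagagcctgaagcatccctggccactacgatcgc
The Adamts2 window held 5 GC boxes and no TATA box, the Col3a1 window 1 TATA box and no GC box, and the Itga4 window 1 GC box. No CAAT box was in these windows. Of all 32851 promoters in the table, 35.7% held a GC box, 13.6% a TATA box and 37.4% a CAAT box. Of the 21 members lower in both models 16 had a promoter there, of which 10 held a GC box, 2 a TATA box and 2 a CAAT box. Such matches describe letters in these windows and are not binding sites shown by these data.

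Other Adamts genes went both ways. Adamts15, a protease of the proteoglycans aggrecan and versican, rose in the 4T1 model from 1.06 to 2.15 FPKM and in the C26m2 model from 0.476 to 1.84 FPKM. Adamts9, a related protease, rose from 0.732 to 3.76 FPKM in the C26m2 model and was not in the 4T1 table. Adamts5, the main aggrecanase of mouse cartilage, fell from 2.19 to 0.612 FPKM and from 1.98 to 0.582 FPKM, so members with overlapping substrates rose and fell in the same muscles. Adamts20 was listed in the 4T1 table alone and fell from 1.25 to 0.0957 FPKM.

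Among matrix metalloproteinases, Mmp9, the gelatinase stored in neutrophil granules, rose from 0.312 to 10.02 FPKM in the 4T1 model, a 32.2-fold change. In the C26m2 model it rose from 0.0906 to 0.473 FPKM, a 5.21-fold change with a q-value of 0.0322 in the authors' deposited table. Its level in C26m2-bearing muscle was thus close to that in healthy Balb/c muscle. Mmp13, a collagenase, rose from 0.0761 to 1.21 FPKM in the 4T1 model and was not in the C26m2 table. Mmp14, a membrane-anchored collagenase, rose from 1.88 to 3.27 FPKM in the C26m2 model and was not in the 4T1 table. Falls were those of Mmp15, another membrane-anchored enzyme, from 8.30 to 0.462 FPKM and from 5.52 to 0.590 FPKM. Mmp23 fell 10.4-fold and 5.28-fold. Mmp3 (stromelysin) was listed in the 4T1 table alone, from 0.529 to 0.133 FPKM. Timp2, an inhibitor of these enzymes that also helps Mmp14 to activate the gelatinase Mmp2, fell from 32.0 to 10.9 FPKM and from 36.2 to 10.4 FPKM. It was the only Timp gene listed.

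No Adam gene was listed in both tables. Adam8, a protease of leukocytes, rose from 0.333 to 5.23 FPKM in the 4T1 model. Adam23, which has no active protease site and acts in cell adhesion, fell from 0.798 to 0.119 FPKM there, and Adam33 from 1.31 to 0.277 FPKM. In the C26m2 model Adam19 fell from 0.859 to 0.370 FPKM. All Adam genes listed were thus low in healthy muscle, and the highest level reached was that of Adam8 in 4T1-bearing muscle.

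**Figure D4:**
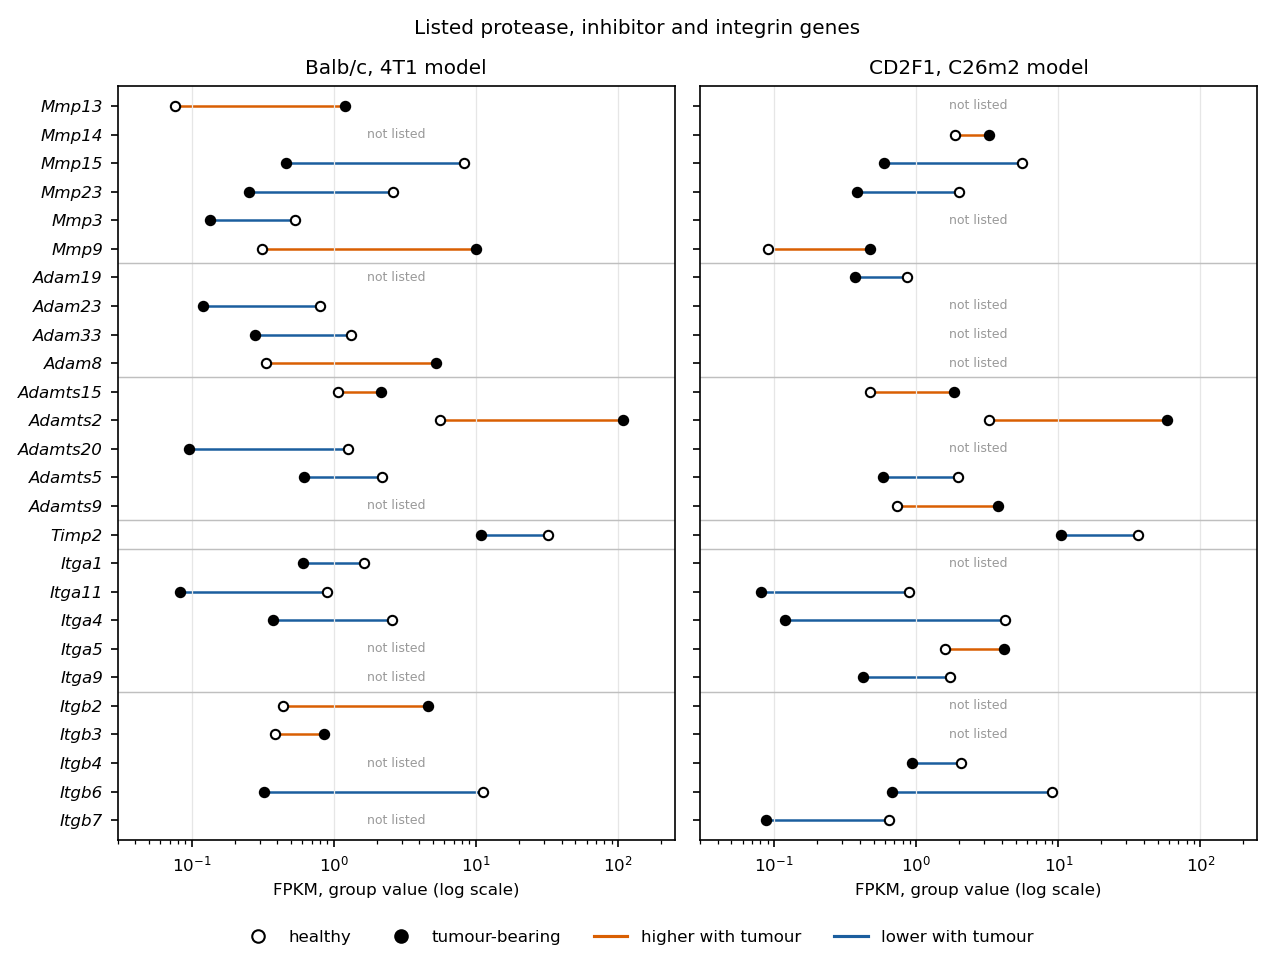
FPKM on a log axis for each listed protease, inhibitor and integrin gene in healthy (open circles) and tumour-bearing (filled circles) muscle, in the 4T1 model (left panel) and the C26m2 model (right panel), with orange lines for genes higher and blue lines for genes lower with tumour. Adamts2 ends farthest to the right in both panels, at 109 and 58.4 FPKM, and Timp2 falls in both.

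The integrin chains that fell in both models were Itga4, Itga11 and Itgb6. Itga4, a chain of the receptor for fibronectin and for the adhesion molecule Vcam1, fell from 2.56 to 0.374 FPKM in the 4T1 model and from 4.22 to 0.120 FPKM in the C26m2 model, a 6.86-fold and a 35.2-fold change. Itga11, a collagen receptor chain of fibroblasts, fell from 0.896 to 0.0821 FPKM and from 0.896 to 0.0806 FPKM. Itgb6, known mainly from epithelia as a partner in activating TGF-beta, was the most abundant integrin chain listed in healthy muscle. It fell from 11.2 to 0.323 FPKM, a 34.8-fold change, and from 9.09 to 0.679 FPKM, a 13.4-fold change. Chains listed in 1 table went both ways. Itga1, a collagen receptor chain, fell from 1.64 to 0.606 FPKM in the 4T1 model. In the C26m2 model Itga9 fell from 1.73 to 0.421 FPKM, Itgb4 from 2.06 to 0.928 FPKM and Itgb7, a lymphocyte chain, from 0.648 to 0.0876 FPKM. Itga5, the alpha chain of the main fibronectin receptor, rose there from 1.60 to 4.15 FPKM, while fibronectin itself (Fn1) fell from 8.45 to 0.902 FPKM. Itgb2, the beta chain shared by the leukocyte integrins, rose from 0.436 to 4.56 FPKM in the 4T1 model. Itgb3 rose from 0.382 to 0.846 FPKM there.

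Neutrophil markers were higher along with Mmp9, Adam8 and Itgb2. Of 12 neutrophil markers 5 were listed in the 4T1 table, all higher, with a summed level of 2.99 FPKM in healthy and 2120 FPKM in tumour-bearing muscle. Most of the tumour-bearing sum is that of S100a8, at 1367.5 FPKM, and S100a9, at 615 FPKM, while Lcn2, Csf3r and Cxcr2 rose at lower levels. For S100a8 and Cxcr2 the q-values in the authors' deposited table were 0.0348 and 0.0389. The C26m2 table listed 4 of the 12, all higher, summed from 8.45 to 109 FPKM, and neither Adam8 nor Itgb2 was listed there. The granule genes Mpo, Elane, Camp, Ngp and Ltf were in neither table. Macrophage markers were divided in the 4T1 table, 2 of 13 higher and 5 lower, with sums of 15.8 and 95.1 FPKM. The rise of the sum is that of Cd68, from 2.64 to 51.8 FPKM, and Lgals3, from 3.19 to 40.2 FPKM, while the 5 others fell. Macrophage markers were 2 higher and 10 lower in the C26m2 table, with sums of 66.9 and 45.2 FPKM. Endothelial markers had 4 higher and 1 lower member of 10 in the 4T1 model and 7 higher in the C26m2 model, summed from 63.5 to 109 FPKM and from 75.7 to 170 FPKM. Of 7 platelet markers, Pf4 alone was listed, lower in the C26m2 model. This is 14.3% of the platelet markers, near the 15.1% of all tested genes that were lower there. The higher shares were 41.7% and 33.3% of the neutrophil markers, 40% and 70% of the endothelial markers and 15.4% of the macrophage markers in each model. Of all tested genes 17.4% and 21.7% were higher. The lower shares of the macrophage markers were 38.5% and 76.9%, against 15.4% and 15.1% of all tested genes. The part of leukocyte content in the rises of these proteases and integrins was not tested.

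The 2 genes with an integrin name that are not integrins had the highest listed levels of all 56 in healthy muscle. Itgb1bp2 (melusin), a muscle protein that binds the tail of the integrin beta chain, fell from 111 to 14.4 FPKM in the 4T1 model and from 88.7 to 29.5 FPKM in the C26m2 model. Itgb1bp3, also known as Nmrk2, a kinase of nicotinamide riboside made in muscle, fell from 124 to 4.33 FPKM and from 147 to 6.71 FPKM.

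Of the 54 family members 24 were listed in both tables, which is 58.5% of those in the 4T1 table and 64.9% of those in the C26m2 table. Over all genes these shares were 72.4% and 64.9%, so the members' overlap was not above that of genes at large. All 24 changed in the same direction, 3 higher (Adamts2, Adamts15 and Mmp9) and 21 lower. Among the names left out, Adamts8 was listed in opposite directions, from 6.96 to 0.527 FPKM in the 4T1 model and from 0.948 to 2.74 FPKM in the C26m2 model. Of all genes listed in both, 99.2% changed in the same direction, so the count is near that of genes at large. The fall was smaller in the C26m2 model for 15 of the 21 lower genes, against 75.8% of all genes lower in both tables. Differences between the models were tested by a normal approximation, with standard errors taken from the deposited p-values and Benjamini-Hochberg adjustment over all 3138 genes listed in both tables. None of the 24 differences passed, the smallest adjusted p being 0.897, that of Col5a2, and 2 had an unadjusted p under 0.05 (Col5a2 and Col22a1). Of all genes listed in both, 26 passed, or 0.829%, and 26 were listed in opposite directions. As computed, no standard error is below 24.7% of its log2 ratio. Genes that change in the same direction can therefore pass only where 1 ratio is a small part of the other. All 24 members changed in the same direction, so their count of 0 was nearly fixed beforehand and no conclusion is drawn from it. For Col5a2 the log2 ratio in the C26m2 model lay 1.74 above that in the 4T1 model (95% interval 0.24 to 3.24). For Mmp9 it lay below, with a difference of -2.62 (95% interval -5.66 to 0.41), and for Itga4 the difference was -2.36 (95% interval -5.18 to 0.46). For Adamts2 it was -0.12 (95% interval -3.01 to 2.78). At the smallest p-value the standard error is an upper bound, 24.7% of the log2 ratio, so the intervals are wide and do not show that the models act alike.

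**Figure D5:**
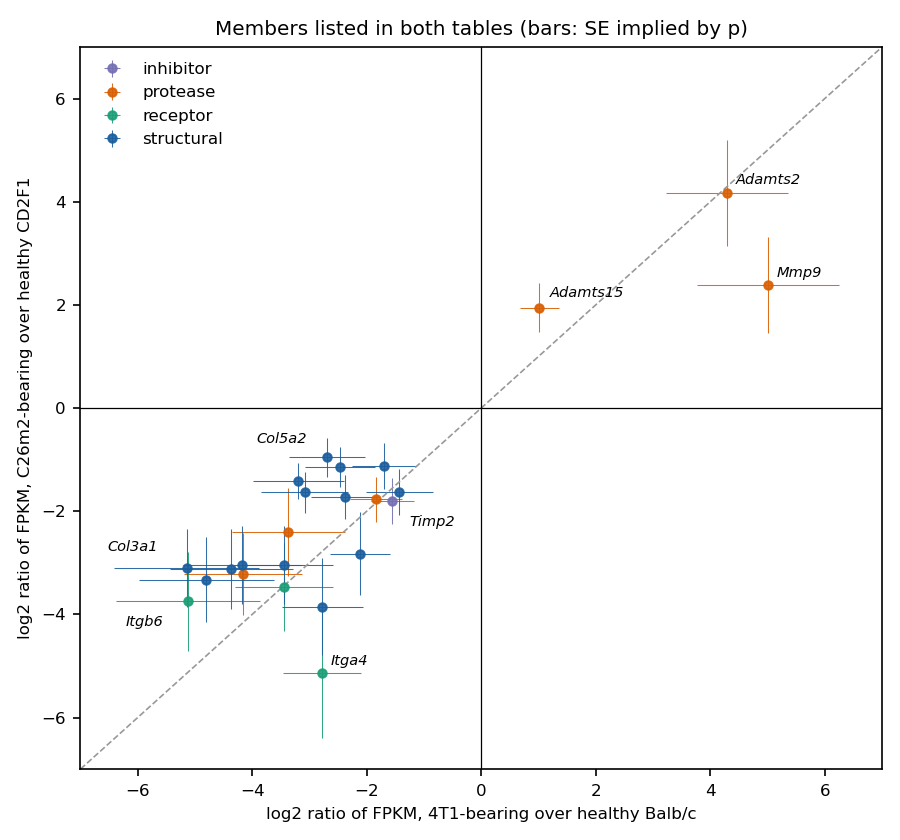
Log2 ratio of tumour-bearing over healthy FPKM in the 4T1 model (horizontal axis) and the C26m2 model (vertical axis) for the 24 family members listed in both tables, coloured by class, with bars of 1 standard error implied by the deposited p-value and a dashed line where both ratios are equal. The 3 genes at upper right are proteases, and the other 21 genes, among them 3 proteases, lie at lower left.

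Most listed matrix genes outside the chosen families were lower too, among them Dcn, Lum, Fmod and Thbs4, which were also counted as fibroblast or tendon markers. Of 28 matrix glycoproteins 14 were listed in the 4T1 table and 15 in the C26m2 table, all lower, with median log2 ratios of -2.17 and -2.20. Tenascin C (Tnc), a glycoprotein of remodelling matrix and tendon, fell 20.1-fold and 15.04-fold. Of 15 matrix proteoglycans 7 were listed in each table, all lower, with a median log2 ratio of -2.79 in both. The lower shares were 50% and 53.6% of the glycoproteins and 46.7% of the proteoglycans in each model. Of all tested genes 15.4% were lower and 17.4% higher in the 4T1 model, and 15.1% lower and 21.7% higher in the C26m2 model. Fmod (fibromodulin), a regulator of collagen fibre thickness, fell 98.0-fold and 44.9-fold. Among 11 other basement membrane genes 5 (45.5%) were lower and 1 (9.09%), Tinagl1, was higher in each table. Hspg2, the core protein of perlecan, fell 3.74-fold and 2.34-fold.

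Collagen-making enzymes were mostly lower, 11 of 12 listed in the 4T1 table and 8 of 11 in the C26m2 table, from a list of 23. The lower ones are 47.8% and 34.8% of the list, against 15.4% and 15.1% of all tested genes. The higher ones are 4.35% and 13%, against 17.4% and 21.7%. Serpinh1, the collagen chaperone, fell 4.99-fold and 2.49-fold, and the prolyl hydroxylase P4ha1 3.72-fold and 2.55-fold. Tgm2, a transglutaminase that crosslinks proteins, rose 3.83-fold and 2.64-fold. Other matrix proteases and inhibitors had 5 higher and 10 lower listed members in the 4T1 table and 5 higher and 11 lower in the C26m2 table, from 25. Of this list 20% were higher in each model, near the 17.4% and 21.7% of all tested genes. The lower shares were 40% and 44%, against 15.4% and 15.1%. Plaur, the receptor of urokinase, rose 12.1-fold and 6.45-fold, while Plau, which encodes urokinase itself, fell 2.01-fold and 2.31-fold.

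Integrins act through an adhesion complex inside the cell. Of 27 adhesion complex genes 7 were higher and 1 was lower in the 4T1 table, and 7 were higher and 4 lower in the C26m2 table. These are 25.9% higher and 3.7% lower of the list in the 4T1 model and 25.9% higher and 14.8% lower in the C26m2 model, against 17.4%, 15.4%, 21.7% and 15.1% of all tested genes. The list also holds alpha-actinins of the sarcomere, and its C26m2 counts include Actn2 among the higher and Actn3 among the lower genes. Tenc1 (tensin 2) rose 4.16-fold and 4.51-fold and Pxn (paxillin) 1.80-fold and 2.24-fold, while Tln2, the muscle-enriched talin, fell 2.67-fold and 1.64-fold. Of 16 genes of the dystrophin complex, which links the fibre to laminin, 2 were higher and 4 lower in the 4T1 model. These are 12.5% and 25% of the list, against 17.4% and 15.4% of all tested genes. Of the same genes 5 were higher and 3 lower in the C26m2 model, or 31.2% and 18.8%, against 21.7% and 15.1%. The differences between these shares were not tested. Sspn (sarcospan) fell 6.97-fold and 2.95-fold. Dag1, which encodes the laminin receptor dystroglycan, was listed in the C26m2 table alone and rose from 48.0 to 113 FPKM.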

How the data were processed

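Tibialis anterior RNA of 8 mouse libraries (4 groups of 2) was sequenced after poly-A selection with an Illumina TruSeq kit, per the labels' protocols. Reads were processed with TopHat2 2.1.0, Cufflinks 2.2.1 and Cuffdiff on build NCBIM37, per the submitters' processing notes. No source used here states the annotation release, the library normalization or whether counting used strand, so overlapping genes may share fragments. The 2 deposited tables hold, per the file headers, 1 FPKM value per group, the log2 fold change, the p-value and the q-value of the authors. They list 4334 genes (4T1) and 4832 genes (C26m2) at q of 0.05 or less, with a smallest p-value of 5e-05. The deposited log2 fold change differed from the log2 ratio of the FPKM values by at most 1.4e-05, so no pseudocount had been added.

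The number of genes tested was estimated as the median of q times rank over p, 13218 (4T1) and 13121 (C26m2). Genes were matched between tables by Ensembl identifier, and list symbols through the synonyms of the reference table (GRCm38.p6). Two-sided normal tests of the difference between models used scipy 1.17.1, pandas 2.3.3 and Python 3.11.15. They were also run on simulated data, drawn with the same normal standard errors that the tests assume. That run therefore cannot check those errors, and no conclusion is drawn from it. Members and lists were chosen with earlier results of these data known. In families of at most 12 listed members all could be named, and from other lists up to 4 per table with the largest log2 ratio. Besides these, P4ha1, Bmp1, Tgm2, Plau, Pdgfra, Pdgfrb, Dcn, Actn2, Actn3, Col4a1, Col4a2 and Adamts8 were chosen after their values were seen. Counts, log2 ratios and medians were recomputed with stricter thresholds, a minimum FPKM of 1 and pseudocounts of 0.1 and 1 FPKM. Some list members are not reported here.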

Additional observations from a re-analysis of the deposited data

How the results depend on the processing

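No paired analysis was possible because the tables hold 1 value per group and the labels give no replicate numbers, and for the same reason no library could be left out. Depth is unknown, so no limit of detection can be given. The counts of lower structural genes, lower integrins and members shared in the same direction stayed within 1.5 times under every setting run. None of the 24 shared members changed direction between the models. No difference of a member between the models passed under either pseudocount, but each standard error stays at 24.7% or more of its log2 ratio there too, so this was nearly fixed beforehand. At q of 0.01 or less, higher structural genes and higher integrins of the 4T1 model numbered 0 and 1, and higher and lower proteases of the C26m2 model 3 and 2. The median log2 ratio was then -3.11 for integrins in the 4T1 model and 1.95 for proteases in the C26m2 model. With a minimum absolute log2 ratio of 1, 1 structural gene was higher in the C26m2 model. With a group value of at least 1 FPKM, higher structural genes numbered 0 in the 4T1 and 1 in the C26m2 model and higher integrins 1 in the 4T1 model, with medians of -0.41 for proteases in the 4T1 model and -2.04 for integrins in the C26m2 model. A pseudocount of 1 FPKM gave medians of -1.62, -0.56 and -0.76 for structural genes, proteases and integrins of the 4T1 model and -0.90 and -0.81 for structural genes and integrins of the C26m2 model. A pseudocount of 0.1 FPKM gave -1.99 for integrins of the C26m2 model. A pseudocount shrinks ratios of low genes by construction; no gene changed direction, but 30 of 43 and 25 of 39 listed genes moved by over 1.5 times with 1 FPKM. Putting back the pattern genes left out, an alternative added after seeing the data, raised higher structural genes of the C26m2 model to 4, by Col4a1 and Col4a2. Apart from what each setting removes or adds, the cause was not tested.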
